A study of Thermothelomyces thermophilus ATCC 42464 with 4 samples.

Results

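The region described here is an 850-kb stretch of chromosome 3 of the thermophilic fungus Myceliophthora thermophila, from 3980001 to 4830000. Chromosome 3 was divided into 1-kb windows, and a window of the stretch was counted as a member when both wild-type (WT) libraries listed at least 10 methylated cytosines in it. The region held 419 such member windows among its 850 windows. They made up 34.1% of the 1227 windows of the chromosome that met the same rule, the other 808 windows being the comparison, and 10464 windows met it over the whole genome. The bounds of the stretch were drawn with the difference between the strains already known, and the rule used the site counts of WT. The differences between strains inside the region are therefore given as a description of these 4 libraries.

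Whole-genome bisulfite sequencing had been performed on mycelium of strain ΔlaeA and of WT (ATCC 42464), each sampled 24 h after exposure to glucose and each with 2 libraries. The titles call the mutant ΔlaeA whereas its genotype label speaks of a knockdown, and the study's methods describe a null strain built in the WT background. Nothing in the labels says that the 2 libraries of a strain came from separate cultures, so the p-values below measure the spread between libraries, which may be technical. Over the whole genome, ΔlaeA replicates 1 and 2 listed 2020637 and 1899567 methylated cytosines, against 2020698 and 2044100 in WT replicates 1 and 2. The median depth at listed cytosines was 56 and 47 reads in ΔlaeA, against 55 and 59 reads in WT, so ΔlaeA replicate 2 was the shallowest library. In the laeA gene itself (MYCTH_2294559, chromosome 1, 1373921 to 1375913), ΔlaeA listed 62 and 25 cytosines, at 5 to 161 and 5 to 123 reads, and WT listed 2 and 1, at 32 to 33 and 22 reads. Parts of the annotated gene were therefore covered in the libraries labelled ΔlaeA, and since unlisted cytosines have no recorded depth, the lists cannot show which part of the gene was absent.

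In filamentous fungi, cytosine methylation is often concentrated in gene-poor, repeat-rich heterochromatin and is sparse over active genes. In Neurospora crassa it depends on trimethylation of histone H3 at lysine 9, a mark that labels silent chromatin, and many methylated sequences there are relics of repeat-induced point mutation, a process that mutates duplicated DNA in the sexual cycle. LaeA is a putative methyltransferase and a global regulator of secondary metabolism in fungi. Bisulfite deaminates unmethylated cytosine but spares methylated cytosine, which is why a remaining C in a read counts as methylation. A cytosine is assigned to the CG, CHG or CHH context by the bases that follow it, where H is any base except G.

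Every deposited list held called cytosines only. A listed site had a methylation level of at least 5%, at least 5 reads and at least 2 methylated reads. A cytosine missing from a list was unmethylated, too weakly methylated or too thinly covered, and these cases cannot be told apart. Levels were therefore compared over shared sites, that is, cytosines listed in all 4 libraries, of which the region held 41632 and the comparison windows 109791.

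Methylation in the region came in blocks between groups of genes. The 419 member windows formed 12 uninterrupted blocks of 2 to 115 windows, and the 7 blocks of at least 20 windows held 397 of them. The blocks were separated by 11 gaps of 3 to 123 kb. Annotated genes covered 1.77% of the bases of member windows and 60.3% of the bases of the other 431 windows of the stretch, while they covered 4.83% of the comparison windows. In those 431 windows ΔlaeA listed 255 and 185 sites, against 227 and 216 sites in WT, which was between 0.288% and 0.373% of all sites listed in the stretch. The gaps were thus nearly free of listed methylation in both strains.

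**Figure D1:**
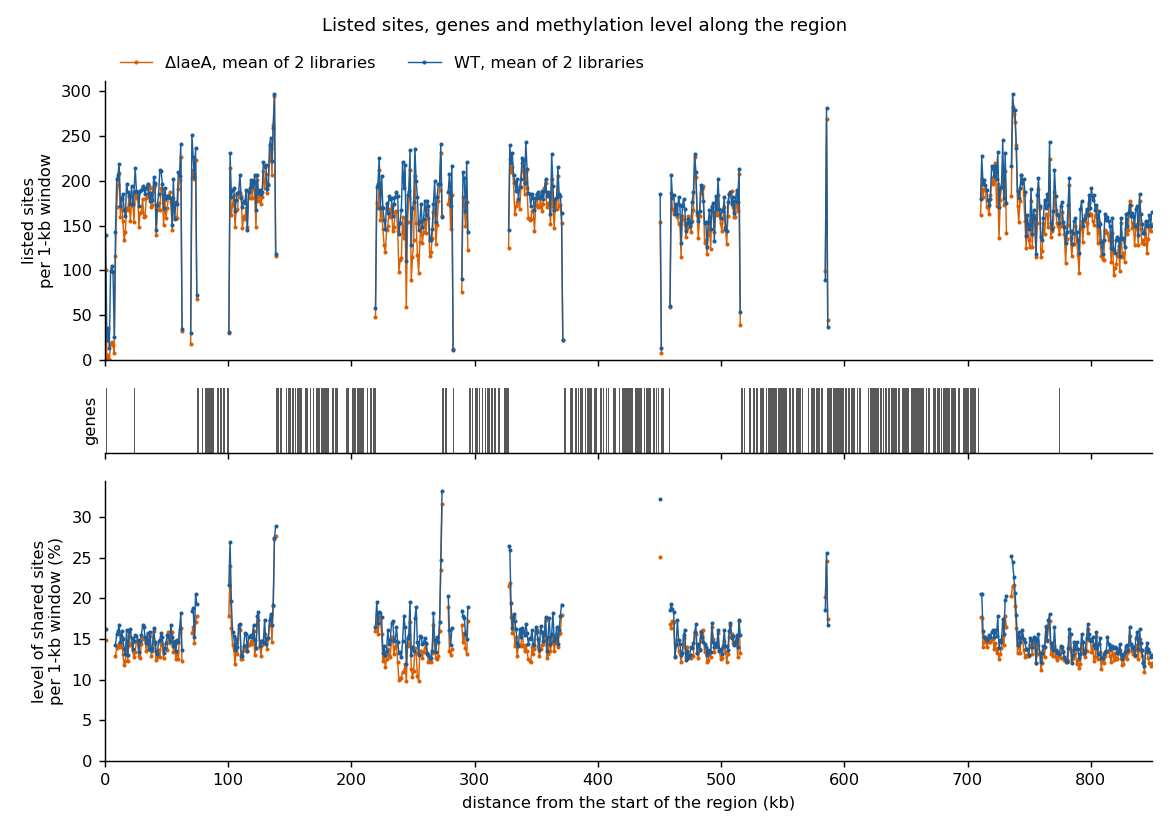
Listed sites per 1-kb member window (top, number of sites), annotated genes (middle, grey bars) and methylation level of shared sites per tested window (bottom, percent) against distance from the start of the region in kb, with ΔlaeA in orange and WT in blue, each the mean of 2 libraries. The 12 methylated blocks alternate with the gene groups, and windows that hold fewer than 10 shared sites have no point in the lower panel.

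The stretch overlapped 161 annotated genes, 1 of them a tRNA gene. No window of 148 of these genes was a member, 13 genes overlapped at least 1 member window and 4 lay wholly inside member windows. Only 6 genes had at least 10 listed sites in any library, and 23 had none in any library. The gap genes include MYCTH_111372 (4135959 to 4137568), annotated as an endoglucanase, an enzyme that cuts inside cellulose chains. It listed 2 and 0 sites in ΔlaeA and 2 and 0 sites in WT. MYCTH_101354 (4166727 to 4168725), a protein with a carbohydrate-binding module, listed 0 and 0 sites in ΔlaeA and 1 and 1 in WT. The terpenoid synthase gene MYCTH_2060085 (4363975 to 4364795) listed none in any library. The cytochrome P450 gene MYCTH_2060315 (4558857 to 4560606), of a family of oxidising haem enzymes, listed 1 and 1 sites in ΔlaeA and 1 and 0 in WT. Sorted by position, the first genes without a listed site in any library were the tRNA gene MYCTH_t88 and the protein-coding genes MYCTH_2305403, MYCTH_50538, MYCTH_2305413 and MYCTH_66924. None of the 32 genes that the study discusses by locus tag lay in the stretch.

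Fewer cytosines were listed in the region in ΔlaeA than in WT. ΔlaeA replicates 1 and 2 listed 68135 and 64054 sites in the member windows, against 72388 and 72946 sites in WT replicates 1 and 2. The groups did not overlap, and the mean was 66095 ± 2886 in ΔlaeA and 72667 ± 395 in WT (SD, n = 2 each), a difference of -9.04%. In the comparison windows ΔlaeA listed 160426 and 151144 sites and WT listed 159301 and 161605. There the strains overlapped, and the means differed by -2.91%. The region accounted for 29.8% and 29.8% of the sites of the chromosome's windows in ΔlaeA, against 31.2% and 31.1% in WT, a share taken relative to each library's own total. By context, the ΔlaeA mean lay 14.4% below the WT mean for CG sites, 9.90% for CHG sites and 8.09% for CHH sites. The same figures in the comparison windows were 5.36%, 4.01% and 2.40%.

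Since members were chosen on WT site counts, the rule was also applied to the ΔlaeA lists. This gave 413 windows, all of them among the 419, and the number of sites in these windows differed by -8.84%. Of the 6 windows that met the rule on the WT lists only, 5 lay between 3981001 and 3988000. The share of listed sites in the region that rested on 2 methylated reads was 2.11% and 2.35% in ΔlaeA and 0.555% and 0.685% in WT, and it was 2.27% and 2.93% in ΔlaeA and 0.897% and 0.948% in WT in the comparison windows. Whether the limits for calling a site differed between the lists was not tested. When at least 3 methylated reads were required, the difference in the region was -7593 sites, as against -6573 sites without this requirement. Median depth at the listed sites of the region was 59 and 50 reads in ΔlaeA and 59 and 63 reads in WT, and the part of depth in the difference was not tested.

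Sites listed in 1 strain only were unevenly divided. In the region, 1881 sites were listed in both ΔlaeA libraries and in neither WT library, while 4275 were listed in both WT libraries and in neither ΔlaeA library, 2.27 for each of the ΔlaeA kind. Among comparison windows there were 4202 sites of ΔlaeA only and 5844 of WT only, or 1.39 for each of the ΔlaeA kind. These sites were weakly methylated. Their pooled level in the region was 7.73% for those found in ΔlaeA only and 8.14% for those found in WT only, whereas the sites shared by all libraries had 15.8% in WT. Of the CG sites listed on the forward strand in the region, the cytosine of the same CG on the other strand was also listed for 42.0% and 39.0% in ΔlaeA, against 45.2% and 46.0% in WT. For the comparison windows this share was 55.9% and 53.1% in ΔlaeA and 55.1% and 56.7% in WT.

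Near the start of the region, 7 consecutive windows from 3981001 to 3988000 held few listed sites in ΔlaeA. ΔlaeA listed 90 and 55 sites in this stretch, against 366 and 434 in WT. Of the 7 windows, 5 were members through the WT lists only, so the rule itself favoured the direction of their difference. The other 2, which met the rule on the lists of both strains, had 36 and 38 sites in ΔlaeA and 186 and 222 in WT. Of these 2, the window from 3986001 to 3987000 had 16 and 17 sites in ΔlaeA, against 107 and 90 in WT. In that from 3985001 to 3986000, ΔlaeA had 20 and 21 sites and WT had 79 and 132. The window from 3983001 to 3984000 listed 3 and 0 sites in ΔlaeA and 13 and 13 in WT. All 7 windows had fewer sites in each ΔlaeA library than in each WT library. The same held for 60.5% of the tested windows of the region and 34.7% of the 10509 windows tested in the genome. The median depth at these sites was 57 and 49 reads in ΔlaeA and 56 and 60 reads in WT, close to that of each library as a whole.

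Methylation in this stretch was weak in both strains. The pooled level of its listed sites was 6.21% and 7.13% in ΔlaeA and 7.94% and 7.96% in WT, near the lowest level that a list can hold. The ΔlaeA replicates shared 4 of their sites, or 4.44% of those of replicate 1 and 7.27% of those of replicate 2, and the WT replicates shared 180, or 49.2% and 41.5% of theirs. Only 2 sites were listed in all 4 libraries, so these windows had no place in the test of levels. The stretch contains the whole of MYCTH_66978 (3981144 to 3982011), a protein-coding gene with no function in the sources used here. This gene listed 1 and 3 sites in ΔlaeA and 24 and 21 sites in WT. The next window on the low side, from 3980001, listed 105 and 97 sites in ΔlaeA and 143 and 136 in WT, and that on the high side, from 3988001, listed 121 and 112 in ΔlaeA and 129 and 157 in WT.

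**Figure D2:**
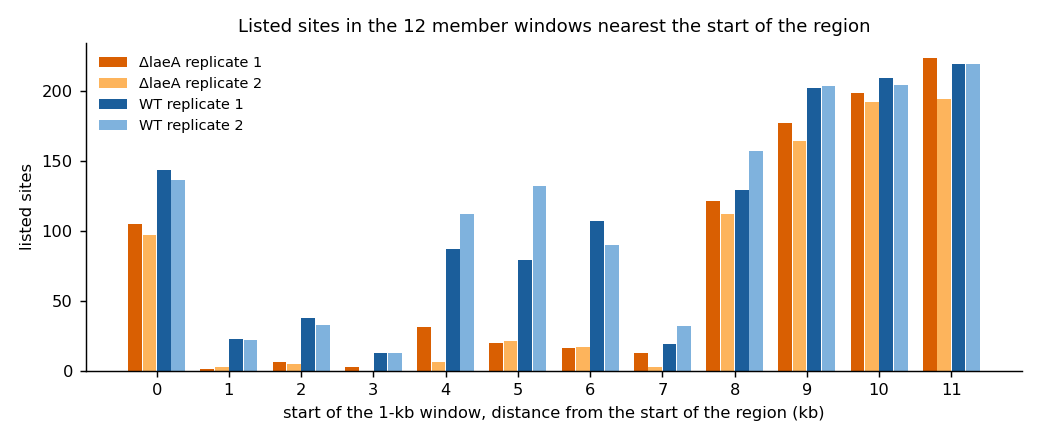
Number of listed sites (vertical axis) in the 12 member windows nearest the start of the region, by the distance of each window's start in kb, with ΔlaeA replicates in orange shades to the left of WT replicates in blue shades. From 1 to 7 kb, each ΔlaeA bar is lower than each WT bar, with 90 and 55 sites in all in ΔlaeA and 366 and 434 in WT.

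The number of listed sites per window was also tested over the genome with edgeR's quasi-likelihood test, which takes the library totals into account. Of 418 member windows tested, 14 had fewer sites in ΔlaeA and 0 had more at an adjusted p below 0.05, as against 38 and 0 at an unadjusted p below 0.05. The background of windows with fewer sites was 0.980% of the 10509 windows tested in the genome, that of windows with more sites was 0.647%, and of the 808 comparison windows 11 had fewer and 1 had more. Because the rule used the WT site counts, these numbers are a description: 3 of the 14 windows were members through the WT lists only, and 11 also met the rule on the ΔlaeA lists. Of the 14 windows, 5 lay in the weakly methylated stretch just described, with log2 differences from -3.36 to -2.30. The other 9 lay between 4220001 and 4235000, with log2 differences from -0.84 to -0.40. These calls were sensitive to the test. Their number was 3 with DESeq2 and 0 with edgeR when windows with few sites were also tested, where 41 member windows had fewer and 0 more sites at an unadjusted p below 0.05. Leaving out ΔlaeA replicate 1, ΔlaeA replicate 2 or WT replicate 2 left 9, 6 and 9.

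Over shared sites, the level of the region was lower in ΔlaeA in each context. CG sites had 12.8% and 12.9% in ΔlaeA, against 14.1% and 13.9% in WT. CHG sites had 14.9% and 14.8% in ΔlaeA, against 16.3% and 16.2% in WT. CHH sites, the most frequent class, had 14.8% and 14.7% in ΔlaeA, against 15.9% and 15.9% in WT. The ΔlaeA and WT libraries did not overlap in any context. Over all contexts the level was 14.6% ± 0.0731 in ΔlaeA and 15.8% ± 0.0278 in WT (SD, n = 2 each), a difference of -1.19 percentage points or -7.56% of the WT level. In the comparison windows the level was 18.7% ± 0.31 in ΔlaeA and 19.1% ± 0.156 in WT, a difference of -0.419 percentage points. Thus the region was less methylated than the rest of the chromosome in every library, with a difference from it of -4.07 percentage points in the mean of ΔlaeA and -3.30 percentage points in that of WT.

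**Figure D3:**
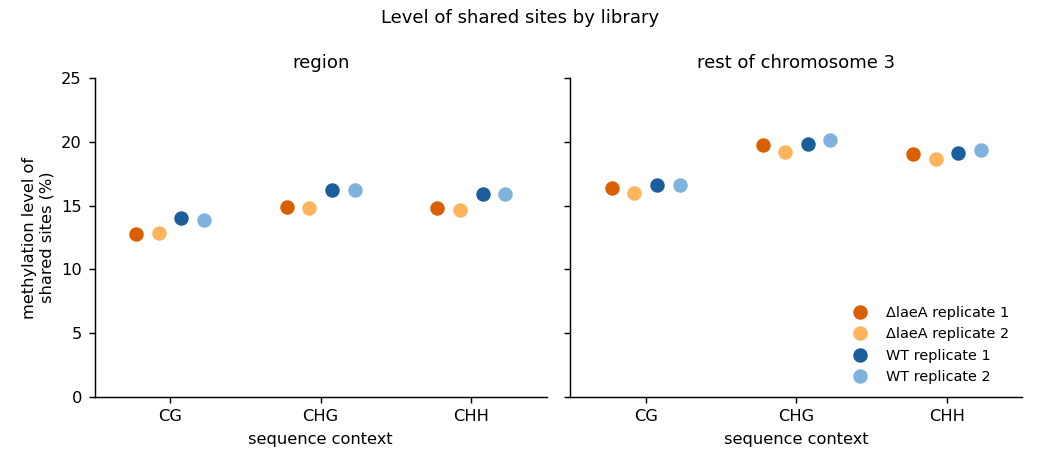
Methylation level of shared sites (percent) by sequence context in the region (left) and in the comparison windows of chromosome 3 (right), 1 point per library, ΔlaeA in orange shades and WT in blue shades. In the region the ΔlaeA points lie below the WT points in each context, at 12.83% against 13.96% in CG, 14.9% against 16.2% in CHG and 14.8% against 15.9% in CHH for the means.

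Restricting levels to shared sites leaves out what falls below the listing limits in any library. Over all listed sites of the region, the level was 10.4% ± 0.108 in ΔlaeA and 10.6% ± 0.0978 in WT for CG, 12.6% ± 0.058 and 13.2% ± 0.0416 for CHG, and 12.5% ± 0.141 and 13.0% ± 0.0502 for CHH, with ΔlaeA first in each pair (SD, n = 2 each). The sum of listed levels per member window, which takes in both the number of sites and their levels, was 19.8 ± 0.568 in ΔlaeA and 22.6 ± 0.053 in WT, a difference of -12.2%. In the comparison windows it was 31.7 ± 0.993 in ΔlaeA and 32.7 ± 0.445 in WT, a difference of -3.29%. With 2 libraries a strain, the exact two-sided permutation test over the 6 orderings cannot give a p below 0.333. It gave this value for the 8 comparisons of the region (the listed and shared levels in each context, the number of listed sites, and the difference from the rest of the chromosome), and the Benjamini-Hochberg adjusted values were 0.333 as well. No library value could therefore reach 0.05.

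At the level of single windows, edgeR's quasi-likelihood F-test was applied to methylated and unmethylated reads at shared sites. A total of 408 member windows held enough shared sites, with a median of 100 sites per window. The level fell in ΔlaeA in 34 of them at a Benjamini-Hochberg adjusted p below 0.05, adjusted over the 10187 windows tested in the genome, and rose in 0. Lower calls made up 3.53% and higher calls 1.06% of all windows tested in the genome, 25 of 771 comparison windows were called lower and 0 higher. At an unadjusted p below 0.05, 119 windows of the region were lower and 0 were higher. The same counts were 1510 and 365 of the 10187 windows of the genome, and 91 and 14 of the 771 comparison windows. The 34 calls depended on the libraries used: 27 and 23 windows were called without ΔlaeA replicates 1 and 2, and 6 and 10 without WT replicates 1 and 2. Both ΔlaeA libraries lay below both WT libraries in all 34 windows, so leaving out a library could not reverse their direction. A common offset between libraries, which removes a shift shared by all windows, left 22 calls.

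The mean window level was lower in ΔlaeA in 369 of 408 windows, or 90.4%, as against 68.5% of all windows tested in the genome. Both ΔlaeA libraries lay below both WT libraries in 245 windows, or 60.05%, where the genome-wide share was 36.6%, and they lay above both in 5 windows, or 1.23%, where it was 11.4%. The median difference was -1.03 percentage points in the region, -0.30 in the comparison windows and -0.48 over all windows tested. The median gap between the levels of a window in 2 libraries was 0.754 percentage points between the ΔlaeA replicates and 0.629 between the WT replicates, while it was 1.11 to 1.19 between a ΔlaeA and a WT library. Since the bounds were drawn with these differences known, nothing is read from the shares.

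**Figure D4:**
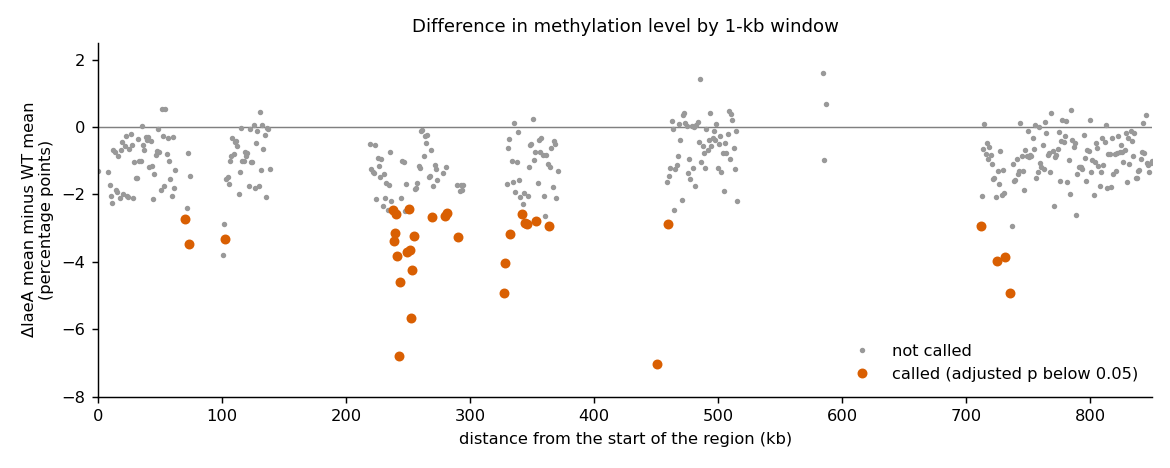
Difference in methylation level (ΔlaeA mean minus WT mean, percentage points) of the 408 tested windows against distance from the start of the region in kb. Orange points mark the 34 windows called at an adjusted p below 0.05, all of which lie below the zero line, and grey points the windows that were not called.

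The window with the largest fall was at 4430001 to 4431000, where 130 shared sites had a level of 25.9% and 24.4% in ΔlaeA and 30.5% and 33.9% in WT. The difference was -7.04 percentage points with an adjusted p of 0.000629 in the edgeR test. It is 61 bp away from MYCTH_2305470 and lies between this gene and MYCTH_93554. Of its shared sites, 114 had a lower mean in ΔlaeA, and at 66 both ΔlaeA libraries lay below both WT libraries whereas at 3 they lay above. Since the window was chosen for its fall, these site counts describe it and are no separate support. The site with the largest difference in this window was a CHH cytosine at 4430778 on the reverse strand. It was methylated in 16 of 66 and 10 of 47 reads in ΔlaeA, against 27 of 66 and 35 of 74 reads in WT.

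The next windows by size of the fall lay in other blocks as well. The window 4222001 to 4223000 had 10.7% and 11.4% in ΔlaeA and 17.9% and 17.9% in WT over 78 sites (-6.80 percentage points, edgeR adjusted p = 9.83e-06). In this window, also chosen for its fall, 55 sites had both ΔlaeA libraries below both WT libraries and 1 site had both above. At its CHH cytosine 4222447 on the forward strand, 4 of 43 and 7 of 41 reads were methylated in ΔlaeA, against 13 of 43 and 21 of 56 in WT. The window 4232001 to 4233000 had 14.2% and 12.5% in ΔlaeA and 19.5% and 18.5% in WT (-5.66 percentage points, edgeR adjusted p = 0.000206). Both of these windows were over 20 kb from the nearest annotated gene, at 22393 and 20749 bp.

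The remaining windows of the 5 largest falls were close to genes. The window 4715001 to 4716000 had 20.6% and 19.95% in ΔlaeA and 26.9% and 23.5% in WT (-4.93 percentage points, edgeR adjusted p = 0.00509) and lay 332 bp from MYCTH_2134407. The window 4307001 to 4308000 overlapped MYCTH_93585 and had 23.0% and 20.2% in ΔlaeA and 27.6% and 25.4% in WT (-4.92 percentage points, edgeR adjusted p = 0.0114). No ΔlaeA library reached the WT range in any of these 5 windows. The largest differences in the other direction, none of them called, were 1.60 percentage points at 4564001, where ΔlaeA had 21.1% and 19.3% and WT had 19.2% and 18.0%, and 1.41 percentage points at 4465001, where ΔlaeA had 15.9% and 16.3% and WT had 15.0% and 14.3%.

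The most methylated windows of the region in WT were those at 4253001, 4430001 and 4118001. The window at 4253001 had 30.8% and 32.5% in ΔlaeA and 35.9% and 30.6% in WT, and that at 4118001 had 30.4% and 24.99% in ΔlaeA and 26.3% and 31.6% in WT. In both, the spread between replicates exceeded the difference between the strains. The least methylated tested windows were those at 4823001 (11.1% and 10.8% in ΔlaeA, 10.99% and 12.4% in WT), 4224001 (10.5% and 9.18% in ΔlaeA, 12.04% and 11.8% in WT) and 4764001 (12.2% and 12.8% in ΔlaeA, 12.4% and 11.6% in WT). Grouped by WT level, the median difference was -1.44 percentage points in the 2 windows of the region under 12% in WT, -0.69 in the 110 windows with 12 to 14%, -1.02 in the 180 with 14 to 16%, -1.52 in the 70 with 16 to 18%, -1.66 in the 34 with 18 to 22% and -2.23 in the 12 with more, the WT values entering both the grouping and the difference. In the comparison windows of the same classes the medians were 0.07, 0.07, -0.20, -0.19, -0.62 and -0.68.

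The blocks differed in how many windows were called. Of the 34 windows, 14 lay in the block from 4199001 to 4254000, all of whose 55 windows had a lower mean in ΔlaeA and 44 of which had both ΔlaeA libraries below both WT libraries. The mean window level of this block was 13.8% and 13.7% in ΔlaeA, against 15.9% and 15.5% in WT. Another 8 called windows lay in the block from 4307001 to 4352000, with 14.9% and 14.8% in ΔlaeA and 16.3% and 16.4% in WT. The longest block, with 115 windows from 4715001 to 4830000, held 1 called window, and its levels were 13.6% and 13.6% in ΔlaeA and 14.6% and 14.5% in WT. In the 58 windows from 4438001 to 4496000 the mean difference was -0.638 percentage points, with 42 windows lower and 1 called. In 11 of the 12 blocks, both ΔlaeA means lay below both WT means. The exception was the block of 3 windows from 4564001, with 21.99% and 19.5% in ΔlaeA and 19.9% and 20.7% in WT. Blocks elsewhere in the genome were not counted in this way. Of all windows tested in the genome, 68.5% had a lower mean in ΔlaeA. In 36.6% of them both ΔlaeA libraries lay below both WT libraries.

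Runs of 5 or more adjacent called windows occurred in 2 places, both in the block that starts at 4199001. All 7 windows from 4217001 to 4224000 and all 6 windows from 4229001 to 4235000 were called. Over the first of these runs the mean window level was 11.2% and 10.7% in ΔlaeA and 14.8% and 14.7% in WT, and ΔlaeA listed 137 and 126 sites per window, against 180 and 185 in WT. Over the second, the level was 11.4% and 11.5% in ΔlaeA and 15.5% and 15.1% in WT, with 145 and 129 sites per window in ΔlaeA and 182 and 188 in WT. The runs were made of windows called for a lower level, so the direction of their level was set in advance. The number of sites was also lower in each ΔlaeA library than in each WT library. It is not a separate measure, because sites under a level of 5% are not listed. Of the 9 windows called for fewer sites in this block, 4 belonged to the run from 4217001 and 3 to that from 4229001. The other 2 were those at 4224001 and 4228001, next to the end of the first run and the start of the second.

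Position within a block was examined in the 7 blocks of at least 20 windows, where the mean level was highest in the end windows. In windows at the end of such a block, bounds of the region not counted as ends, the mean level was 19.9% and 18.6% in ΔlaeA and 22.3% and 21.4% in WT. It was 18.4% and 17.97% in ΔlaeA and 19.8% and 19.9% in WT in windows 1 to 2 kb further in. From 3 to 5 kb it was 14.8% and 14.7% in ΔlaeA and 15.9% and 15.9% in WT, and more than 20 kb from the end it was 13.5% and 13.5% in ΔlaeA and 14.6% and 14.5% in WT. The mean difference was -2.63 percentage points in the 11 tested end windows, -1.68 in the 24 windows next to them, -1.09 from 3 to 5 kb, -0.981 from 6 to 10 kb, -1.13 from 11 to 20 kb and -1.05 in the 148 windows farthest in. All 35 tested windows within 2 kb of the end of these 7 blocks were lower in ΔlaeA, as were 89.9% of the windows farthest in. The shorter blocks were not part of this profile, and in the block of 3 windows from 4564001 both end windows had a higher mean in ΔlaeA. The level also fell inwards in the comparison windows. At the block ends it was 24.5% and 23.6% in ΔlaeA and 24.4% and 25.3% in WT. In the windows farthest in it was 15.5% and 15.5% in ΔlaeA and 15.5% and 15.7% in WT. In the comparison windows the difference was -0.808 percentage points at the block ends and -0.144 in the windows farthest in. There 71.4% of the end windows, 68.6% of those 1 to 2 kb further in and 53.2% of those farthest in were lower.

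**Figure D5:**
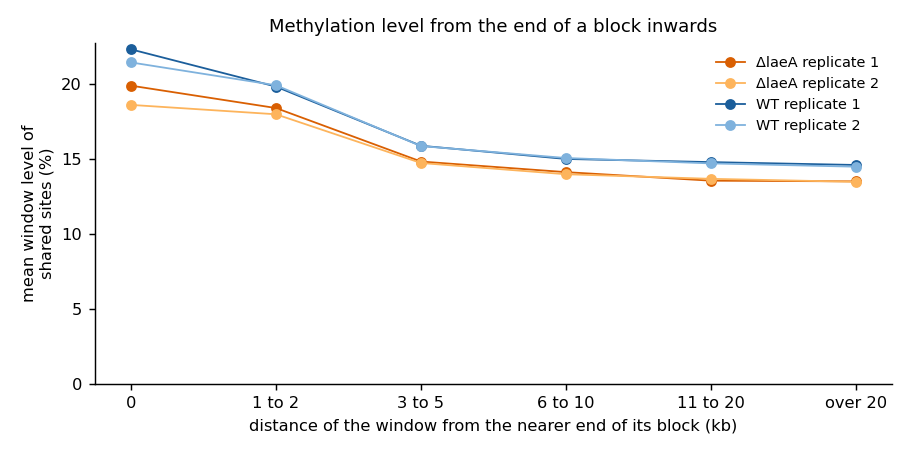
Mean methylation level of shared sites per window (percent) by the distance of the window from the nearer end of its block in kb, for the 7 blocks of at least 20 windows, 1 line per library, ΔlaeA in orange shades and WT in blue shades. The level is highest in end windows, at 19.9% and 18.6% in ΔlaeA and 22.3% and 21.4% in WT, and lowest in the interior, with both ΔlaeA lines below both WT lines at each distance.

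Few genes of the region carried methylation, and edgeR called 0 of them over the body (1 had an unadjusted p under 0.05). Of the 4 bodies with enough shared sites, 0 were called, whereas 3.95% of the 152 bodies tested in the genome were called lower. All 4 had a lower mean in ΔlaeA, but the share of bodies with a lower mean in the genome was not counted. MYCTH_93585 (4306271 to 4308038) had the most shared sites, 103, with a level of 23.1% and 20.1% in ΔlaeA and 27.7% and 25.4% in WT (-4.92 percentage points, edgeR adjusted p = 0.154). MYCTH_80299 (4003390 to 4004079), with 57 sites, had 14.7% and 11.3% in ΔlaeA and 15.4% and 15.2% in WT. MYCTH_80168 (4754554 to 4755237), with 49 sites, had 12.9% and 12.2% in ΔlaeA and 13.9% and 12.5% in WT, and MYCTH_2061412 (4028817 to 4029038), with 17 sites, had 12.4% and 13.5% in ΔlaeA and 14.8% and 13.9% in WT. No function is given for these genes in the sources used here. Their number of listed sites was 142 and 126 in ΔlaeA and 156 and 152 in WT for MYCTH_93585, and 123 and 90 in ΔlaeA and 141 and 127 in WT for MYCTH_80299.

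In the 1-kb flanks of genes, 22 flanks of the region could be tested, 20 had a lower mean in ΔlaeA and 4 fell at an adjusted p below 0.05. The genome-wide shares were 7.91% called lower and 1.29% called higher, of 695 flanks. The share of flanks with a lower mean in the genome was not counted, and for 1-kb windows it was 68.5%. The largest fall was in the low-coordinate flank of MYCTH_93554 (4430575 to 4431574), with 28.0% and 25.6% in ΔlaeA and 32.9% and 35.2% in WT over 96 sites (-7.23 percentage points, edgeR adjusted p = 0.0102). The high-coordinate flank of MYCTH_2305470 (4429941 to 4430940) overlaps it and is not a separate region. It had 24.1% and 22.1% in ΔlaeA and 28.3% and 32.2% in WT (-7.12 percentage points, edgeR adjusted p = 0.00818). The flank of MYCTH_2134407 (4714670 to 4715669) had 20.3% and 19.1% in ΔlaeA and 26.7% and 22.6% in WT (-4.95 percentage points, edgeR adjusted p = 0.042). That of MYCTH_93585 (4308039 to 4309038) had 21.8% and 22.4% in ΔlaeA and 26.1% and 26.3% in WT (-4.08 percentage points, edgeR adjusted p = 0.0254). In all 4 flanks the ΔlaeA libraries lay below the WT libraries. With a library offset 2 flanks were called, and without ΔlaeA replicate 1 or 2 there were 2 and 1. The gene table has no strand, so a flank cannot be named a promoter.

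The authors' table of differential regions, deposited along with the lists and made from the same libraries, placed 24 of its 283 regions in the stretch and 50 on the chromosome. All 24 had the lower mean in ΔlaeA, the rest of the chromosome had 21 lower and 5 higher, and the whole table had 216 lower and 67 higher. They lay in member windows, 22 were CHH regions and 2 were CHG regions, and 14 of the 24 lay in the block from 4199001. The largest differences in the authors' deposited means were at 4430685 to 4431092 in CHH (16.6% in ΔlaeA, 23.3% in WT), at 4082371 to 4082504 in CHH (11.4% in ΔlaeA, 17.2% in WT) and at 4232089 to 4232158 in CHG (6.51% in ΔlaeA, 11.8% in WT). The table also holds a CHH region of 915 bp from 3985276 to 3986190, inside the weakly methylated stretch near the start. Its deposited means were 1.45% in ΔlaeA and 3.57% in WT over 252 cytosines, so they were taken over more cytosines than the lists hold. The lists gave 12 and 6 sites there in ΔlaeA, against 54 and 79 in WT. In 23 of the 24 regions the summed level of the listed sites was lower in each ΔlaeA library than in each WT library. Since the authors chose these regions by the difference between the same libraries, this count is no separate support.

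The bounds of the region cut through methylated blocks. At the low end the first block went on for 23 more windows, from 3957001 to 3980000, with a mean window level of 15.0% and 15.0% in ΔlaeA and 16.4% and 16.4% in WT. Of its 22 tested windows, 20 had a lower mean in ΔlaeA and 2 were called. At the high end the last block went on for 8 windows to 4838000, with 16.5% and 17.2% in ΔlaeA and 17.4% and 18.4% in WT, 7 of the 8 being lower and 0 called. The nearest genes outside were MYCTH_2037651 (3978643 to 3978807), 1194 bp before the start, and MYCTH_2305600 (4838400 to 4840063), 8400 bp after the end. Near the limit of 10 sites, the members with the fewest sites in a WT library were the windows at 4262001 (13 and 11 in ΔlaeA, 10 and 12 in WT), 3983001 and 4431001 (10 and 5 in ΔlaeA, 14 and 13 in WT). The windows of the stretch that came closest without being members were those at 4289001 (6 and 1 in ΔlaeA, 9 and 8 in WT), 4714001 (2 and 4 in ΔlaeA, 4 and 4 in WT) and 4131001 (4 and 9 in ΔlaeA, 6 and 3 in WT).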

How the data were processed

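Per the labels, mycelial DNA with an unmethylated lambda spike-in was sonicated, bisulfite converted and sequenced with paired ends. The submitters' processing notes name FastQC 0.11.5 and Bismark 0.16.3 without their roles, and the genome build is not given in the sources used here. The authors deposited 1 list of cytosines per library with read counts of methylated and unmethylated reads, the level as a fraction and a p-value and adjusted p-value for each call. The authors' table of differential regions gives the mean level of each strain as a fraction, and its score columns, deposited by the authors, hold the difference of means and a summed statistic, which were not used. No per-sample column was unmapped (0 columns). Gene positions came from a RefSeq table of assembly ASM22609v1, which names its chromosomes as the lists do. Coordinates are those of the lists and are 1-based.

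Methylated and unmethylated reads of sites listed in all 4 libraries were summed per 1-kb window, gene body and 1-kb gene flank, with at least 10 such sites and 10 methylated reads, and fitted with edgeR 4.0.16 in R 4.3.3 (quasi-likelihood F-test, no trend on the negative binomial dispersion, the default trend with abundance on the quasi-dispersion). Numbers of listed sites per window were fitted with edgeR with TMM scaling. P-values were adjusted over all windows, flanks or bodies tested in the genome. Tested on simulated data, the window fit recovered 93.5% and the site-number fit 97.5% of 200 changed windows, with 6 and 12 false calls. How recovery varies with the size of a difference was not tested. These shares therefore do not give the recovery for differences of the size found in the region. The noise of the simulation was set in advance and not taken from these libraries. The false calls therefore do not give the rate of false calls in the region. For the site-number fit, no window with few sites was changed. Library values were compared by exact permutation. Level and number of sites rest on counts of reads without molecular identifiers. At a median depth of 47 to 59 reads, 1 read moves the level of a single site by about 2 percentage points, so single sites were not tested.

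Named were the 5 called windows with the largest fall, the 3 highest and 3 lowest WT windows, genes with called flanks, up to 5 genes with most shared sites and 5 with no listed site by position, the 3 deposited regions with the largest difference, and the nearest genes outside. The largest rises, the listed-site windows, the single cytosines, the gap genes and the 915-bp region were chosen after their values were seen. Members, bounds and lists were chosen with earlier results of these data known. Alternatives were depth limits, site minimums, shifted windows, a library offset, a replicate block, other tests and leaving out each library. Sequence composition was not analysed here.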

Additional observations from a re-analysis of the deposited data

How the results depend on the processing

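The differences of library values kept their sign under every alternative run. Where the strains did not overlap, leaving out a library could not change the sign. Fisher's exact test was run on the pooled reads of each strain, which leaves out the spread between libraries. It called 182 windows of the region lower and 2 higher, 184 in all, and 3638 of the 10187 windows tested in the genome. A quasi-binomial model without shared dispersion called 1 window in the region and 1 in the genome. At an unadjusted p below 0.05, this model had 66 windows of the region lower and 0 higher. A library offset left 22 called windows and 2 flanks, and gave 1 called gene body. Windows called by number of listed sites came to 3 with DESeq2 and 0 with no minimum. Leaving out 1 library gave 6 to 27 called windows, 6 to 10 windows called by number of sites, 1 to 3 flanks and 0 to 2 bodies. The cause of these shifts was not tested, except that a left-out library leaves fewer samples.

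The levels gave no sign that the replicate numbers pair the libraries. Deviations of same-numbered libraries correlated at 0.0018 over 10187 windows and -0.10 over those of the region. Whether same-numbered libraries shared a culture or a batch is not in the labels. A replicate block gave 35 called windows, 13 by number of sites, 4 flanks and 0 bodies. The crossed pairing, added after seeing the data, called 52 windows. Leaving out windows of more than 1.5 times the median depth removed none. ΔlaeA replicate 2 was the shallowest library, and sites under the listing limits in any list, including nearly all of the stretch from 3981001 to 3988000, were outside every comparison of shared levels.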
